A study of Homo sapiens with 9 samples.

Results

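The 10 genes described here encode the enzymes that write and erase N6-methyladenosine (m6A) on RNA and the proteins that the writer works with. They were chosen by symbol, with earlier results of these data known. On the writer side are METTL3, METTL14, METTL16, WTAP, RBM15, RBM15B, ZC3H13 and CBLL1, and the erasers are FTO and ALKBH5. Together they are 10 of the 19969 genes in the count table, and all 10 passed the low-count filter in every comparison. m6A is a methyl group placed on adenosines of mRNA and other RNAs, mostly in the nucleus. A catalytic pair, METTL3 with METTL14, is brought to its RNA substrates by a set of adaptor proteins, and readers such as the YTH proteins bind the mark and affect splicing, translation and decay. FTO and ALKBH5 are dioxygenases that remove the methyl group, so that the mark can be reversed.

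The series concerns editing of m6A in HEK293T cells, a human embryonic kidney line that carries the SV40 large T antigen, under the control of red and far-red light. FHY1 is known from plants as a partner of the far-red light receptor phytochrome A. The libraries compared are FHY1-M3 with an ACTB sgRNA (a guide RNA named after the beta-actin gene, 2 libraries), FHY1-M3 with a con sgRNA (2 libraries), FHY1-M3 with a non-target sgRNA (2 libraries) and input (3 libraries). All 9 libraries are labelled as total RNA from which ribosomal RNA was removed. The labels do not spell out M3, the light given, how con differs from non-target, which cells gave the input, or whether the FHY1-M3 libraries hold total, supernatant or immunoprecipitated RNA. In the count table the con columns also bear the word ACTB, which the titles of the con samples lack. What separates the FHY1-M3 libraries from the inputs other than the construct and guide therefore cannot be told apart from these. Whether replicates are separate cultures is not labelled. The p-values therefore rest on differences among libraries of a group that may be only technical.

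Total counts were 2900021 to 3802681 in the FHY1-M3 libraries, against 350413 to 643954 in the inputs, so input levels carry the larger counting error. Mitochondrial mRNA made up 0.563% to 0.639% of counts in the FHY1-M3 libraries, against 7.52% to 7.80% in the inputs. Replication-dependent histone genes made up 0.132% to 0.149%, against 0.797% to 0.938%. Genes known to be expressed in HEK293 cells (NEFL, NEFM, VIM, CDH2, LIN28B and PAX2) were detected in all 9 libraries, and INA in all but 1 input. Of 7 markers of other cell types, PTPRC and CD3E were at 0 in all 9 libraries, while COL1A1 was detected in every library, with 16.8 to 48.9 CPM across the FHY1-M3 libraries, against 10.5 to 63.6 CPM across the inputs. HBB and KRT5 were at 0 in 8 libraries, ALB in 6 and PECAM1 in 4. Levels are given as CPM, counts scaled to a common library size of 1e+06 after scaling of the library totals with edgeR's TMM method. CPM are not divided by transcript length, so the levels of different genes are not compared.

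Between the FHY1-M3 libraries and the inputs, the writer and eraser genes moved in both directions. RBM15B was 3.04-fold higher, METTL14 2.01-fold, WTAP 1.95-fold and ZC3H13 1.82-fold higher, and FTO fell to 0.480 of its level in the inputs. METTL3, METTL16, RBM15, CBLL1 and ALKBH5 did not pass the test. Thus 4 of 10 genes rose and 1 fell at a Benjamini-Hochberg adjusted p below 0.05 (edgeR's quasi-likelihood F test, two-sided). Among all 13411 genes tested, 20.2% passed, 11.5% as higher and 8.71% as lower. The median log2 fold change was 0.03 for the 10 genes and 0.04 for all genes tested, and the median size of the change regardless of direction was 0.63 for the 10 and 0.59 for all. The median standard error of the log2 fold change was 0.23 for the 10 genes and 0.40 for all. The shares that passed therefore rest on unlike precision. In 4 of the 10 genes (WTAP, RBM15B, ZC3H13 and FTO) the libraries of the groups did not overlap, which was the case for 23.4% of all genes tested. The 10 genes summed to 1348 to 1569 CPM in the FHY1-M3 libraries, against 1188 to 1206 CPM in the inputs. Bulk counts cannot separate a lower level per cell from fewer cells with the transcript. The RNA fraction that went into the FHY1-M3 libraries is also unlabelled. Whether these fold changes reflect transcript levels in the cells or the way RNA was selected for the libraries was not tested. The words rose and fell therefore describe values in the libraries only.

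**Figure D1:**
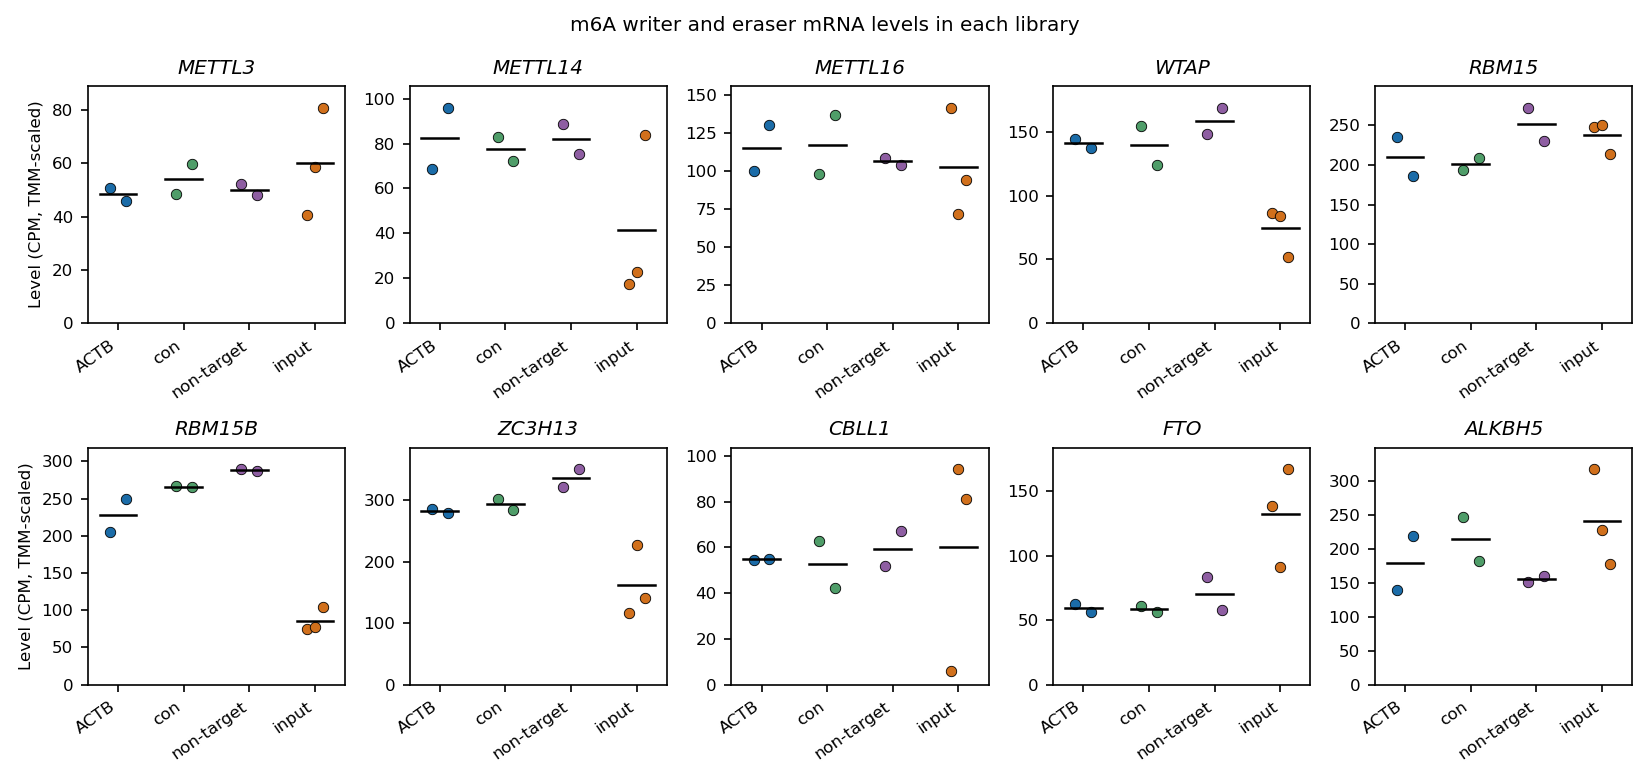
Level of each of the 10 genes in CPM (vertical axes, each starting at 0) in the 2 ACTB sgRNA, 2 con sgRNA, 2 non-target sgRNA and 3 input libraries; points are libraries and bars are group means. RBM15B had 206 to 289.6 CPM across the FHY1-M3 libraries, against 75.2 to 105 CPM across the inputs, whereas METTL3 and RBM15 overlapped between them.

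The catalytic pair gave unequal values. METTL3, the subunit that transfers the methyl group, had 50.8 and 46.0 CPM in the ACTB sgRNA libraries, 48.4 and 59.8 CPM in the con sgRNA libraries, and 52.1 and 48.2 CPM in the non-target sgRNA libraries, against 40.5, 58.5 and 81.0 CPM in the inputs. The inputs lay on both sides of the FHY1-M3 libraries. The labels do not spell out M3, so whether reads from the construct were counted as METTL3 is not known. METTL3 averaged 50.9 ± 4.88 CPM in the FHY1-M3 libraries (SD, n = 6) and 60.0 ± 20.3 CPM in the inputs (SD, n = 3). Its log2 fold change was -0.24 (standard error, SE, 0.31, adjusted p = 0.631), with a 95% interval of -0.86 to 0.38. As a fold, the interval runs from 0.549 to 1.30, and no difference within it can be given a direction.

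METTL14, which forms the RNA-binding surface of the pair and has no transferase activity of its own, had 68.5 and 96.0 CPM in the ACTB sgRNA libraries, 82.7 and 72.4 CPM in the con sgRNA libraries, and 88.7 and 75.2 CPM in the non-target sgRNA libraries, against 17.3, 22.8 and 83.6 CPM in the inputs. Input replicate 3 lay within the range of the FHY1-M3 libraries, and the other 2 inputs lay below all of them. The input values rest on 6, 14 and 32 counts. Because 1 read pair appears to add 2 counts, these stand for 3, 7 and 16 pairs. METTL14 rose, with a log2 fold change of 1.01 (SE 0.35, adjusted p = 0.0342) and a 95% interval of 0.31 to 1.71. Over the alternatives run it was the 1 of the 5 calls that was lost in some of them. The adjusted p was 0.0873 without ACTB sgRNA replicate 2, 0.0698 without con sgRNA replicate 1, 0.0507 without con sgRNA replicate 2 and 0.0672 without non-target sgRNA replicate 1. It was 0.156 without input replicate 1 and 0.250 without input replicate 2, and without input replicate 3 the log2 fold change was 1.96 (adjusted p = 0.000368).

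A ratio of the counts of 2 genes within a library does not depend on how the library was scaled. METTL14 counts divided by METTL3 counts gave 1.35 and 2.09 in the ACTB sgRNA libraries, 1.71 and 1.21 in the con sgRNA libraries, and 1.70 and 1.56 in the non-target sgRNA libraries, against 0.429, 0.389 and 1.03 in the inputs. Every FHY1-M3 library lay above every input, the nearest pair being 1.21 and 1.03. The input ratios rest on 6, 14 and 32 METTL14 counts and on 14, 36 and 31 METTL3 counts. In read pairs these are about 3, 7 and 16 for METTL14 and 7, 18 and 16 for METTL3. WTAP counts divided by METTL3 counts overlapped between the groups. That ratio ran from 2.08 to 3.52 in the FHY1-M3 libraries and from 0.645 to 2.14 in the inputs. How often the ratios of other gene pairs separate these groups was not counted. The METTL14 to METTL3 ratio shows unequal values of the 2 transcripts and does not say which of them differed.

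RBM15B and its paralog RBM15 also gave unequal values. Both are RNA-binding proteins that bring the writer to its sites and share part of their function. RBM15B had 206 and 249.9 CPM in the ACTB sgRNA libraries, 266 and 266 CPM in the con sgRNA libraries, and 289.6 and 286 CPM in the non-target sgRNA libraries, against 75.2, 78.0 and 105 CPM in the inputs. The lowest FHY1-M3 library was thus well above the highest input. RBM15B rose by 1.60 on the log2 scale (SE 0.18, adjusted p = 6.51e-09), with a 95% interval of 1.24 to 1.97. RBM15 had a lowest, median and highest level of 186, 219.7 and 273 CPM in the FHY1-M3 libraries. In input replicates 1, 2 and 3 it had 249, 250.3 and 214 CPM. All 3 inputs of RBM15 fell inside the range of the FHY1-M3 libraries, and the log2 fold change was -0.11 (SE 0.15, 95% interval -0.41 to 0.19, adjusted p = 0.647). RBM15B counts divided by RBM15 counts gave 0.873 and 1.35 in the ACTB sgRNA libraries, 1.37 and 1.27 in the con sgRNA libraries, and 1.06 and 1.24 in the non-target sgRNA libraries, against 0.302, 0.312 and 0.488 in the inputs. Each FHY1-M3 library was above each input, so the RBM15B share of this paralog pair was higher in all 6 of them. Here too, the share of other gene pairs that separate the groups was not counted.

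**Figure D2:**
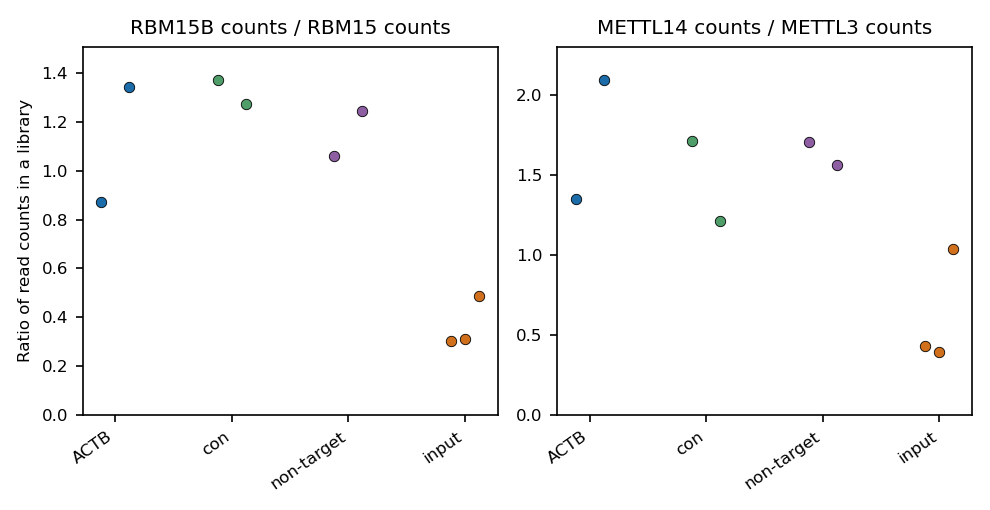
Ratio of deposited counts of 2 genes within each library (vertical axes, no unit, starting at 0) for the 2 ACTB sgRNA, 2 con sgRNA, 2 non-target sgRNA and 3 input libraries; points are libraries. RBM15B to RBM15 ran from 0.873 to 1.37 in the FHY1-M3 libraries and from 0.302 to 0.488 in the inputs, and METTL14 to METTL3 from 1.21 to 2.09 and from 0.389 to 1.03.

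The upstream windows of these 4 genes are shown because RBM15B and METTL14 passed the test while RBM15 and METTL3 did not. Whether the members of a pair differed in their change was not tested. Each holds the 250 bases before the annotated start in RefSeq (GRCh38.p14), 5′ to 3′ on the gene's strand. The windows are chr3:51391035-51391284 on the forward strand for RBM15B, chr1:110339127-110339376 on the forward strand for RBM15, chr4:118685142-118685391 on the forward strand for METTL14 and chr14:21511341-21511590 on the reverse strand for METTL3. Capitals mark matches, on either strand, to the GC box GGGCGG, the E-box CACGTG, the CCAAT box CCAAT, the ETS core CCGGAAG and the TATA box TATAAA.
RBM15B: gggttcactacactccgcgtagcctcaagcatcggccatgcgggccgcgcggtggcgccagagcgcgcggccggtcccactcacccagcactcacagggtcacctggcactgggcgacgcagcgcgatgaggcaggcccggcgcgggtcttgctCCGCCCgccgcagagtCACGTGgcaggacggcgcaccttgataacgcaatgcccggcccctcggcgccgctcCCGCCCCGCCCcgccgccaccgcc
RBM15: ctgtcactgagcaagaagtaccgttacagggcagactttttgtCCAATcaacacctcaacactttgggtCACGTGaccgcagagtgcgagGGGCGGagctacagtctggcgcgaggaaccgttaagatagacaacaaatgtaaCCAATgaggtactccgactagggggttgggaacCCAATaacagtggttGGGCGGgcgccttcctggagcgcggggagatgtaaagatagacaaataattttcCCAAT
METTL14: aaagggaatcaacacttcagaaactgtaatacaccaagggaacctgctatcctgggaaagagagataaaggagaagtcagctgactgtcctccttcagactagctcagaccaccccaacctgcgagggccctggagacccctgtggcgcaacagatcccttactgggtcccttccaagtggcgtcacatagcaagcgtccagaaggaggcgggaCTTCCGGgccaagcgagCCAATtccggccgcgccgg
METTL3: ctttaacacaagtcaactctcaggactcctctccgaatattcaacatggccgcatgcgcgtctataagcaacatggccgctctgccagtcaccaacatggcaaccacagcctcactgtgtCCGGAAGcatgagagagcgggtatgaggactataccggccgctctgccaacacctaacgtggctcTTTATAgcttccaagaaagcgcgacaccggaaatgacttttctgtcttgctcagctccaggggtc
The RBM15B window held 3 GC boxes, of which the pair nearest the start overlap by 1 base, and 1 E-box. The RBM15 window held 4 CCAAT boxes, 2 GC boxes and 1 E-box. METTL14 had 1 ETS core and 1 CCAAT box, and METTL3 had 1 ETS core and 1 TATA box. Of 15843 RefSeq windows of the same length, 56.0% held a GC box, 34.5% a CCAAT box, 11.8% an ETS core, 9.23% a TATA box and 7.84% an E-box. The bases G and C made up 74.8% of the RBM15B window and 51.6% of the RBM15 window, 57.2% for METTL14 and 53.2% for METTL3, with a median of 62.4% over all windows. CpG dinucleotides numbered 35 in RBM15B, 13 in RBM15, 11 in METTL14 and 13 in METTL3, against a median of 17. These matches describe the sequence only.

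WTAP, the subunit that anchors the catalytic pair in nuclear speckles, had 145 and 138 CPM in the ACTB sgRNA libraries, 155 and 124 CPM in the con sgRNA libraries, and 149 and 169 CPM in the non-target sgRNA libraries, against 86.7, 84.5 and 52.3 CPM in the inputs. All 6 FHY1-M3 libraries lay above the inputs. WTAP rose by 0.96 on the log2 scale (SE 0.22, adjusted p = 0.00136), with a 95% interval of 0.52 to 1.41. On chromosome 6, WTAP (159726693 to 159756319, forward strand, GRCh38.p14) lies wholly within the annotated span of SOD2, which is on the opposite strand and encodes mitochondrial superoxide dismutase. SOD2 moved the other way, with 97.1 ± 18.9 CPM in the FHY1-M3 libraries (SD, n = 6) and 145 ± 24.6 CPM in the inputs (SD, n = 3), a log2 fold change of -0.58 (adjusted p = 0.0407). How counting treated strand is not given in the sources used here, so reads from bases that both genes share may not have been told apart.

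ZC3H13, a zinc finger protein that helps keep the writer complex in the nucleus, had 286 and 279 CPM in the ACTB sgRNA libraries, 302 and 284 CPM in the con sgRNA libraries, and 322 and 350.2 CPM in the non-target sgRNA libraries, against 116, 228 and 141 CPM in the inputs. The groups did not overlap, with 304 ± 27.5 CPM in the FHY1-M3 libraries (SD, n = 6) and a wider relative spread in the inputs, at 161 ± 58.7 CPM (SD, n = 3). ZC3H13 rose by 0.86 on the log2 scale (SE 0.16, adjusted p = 0.000131), with a 95% interval of 0.53 to 1.19.

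CBLL1, also called HAKAI, is an E3 ubiquitin ligase that is part of the same complex. Its lowest, median and highest levels were 42.2, 54.8 and 67.0 CPM in the FHY1-M3 libraries. In input replicates 1, 2 and 3 it had 5.78, 94.3 and 81.0 CPM. Input replicate 1 was far below the other inputs, and it rests on 2 counts. Because 1 read pair appears to add 2 counts, that value stands for 1 pair, with an exact 95% Poisson interval of 0.146 to 32.2 CPM that covers counting error only. The log2 fold change was -0.19 (SE 0.36, 95% interval -0.91 to 0.54, adjusted p = 0.771). Without 1 library at a time it lay between -0.67 and 0.32, so that no direction can be given for CBLL1.

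METTL16 is a separate methyltransferase that acts on U6 snRNA and on the MAT2A mRNA. It had a lowest, median and highest level of 98.3, 106 and 136 CPM in the FHY1-M3 libraries. In input replicates 1, 2 and 3 it had 142, 71.5 and 94.1 CPM. The inputs lay on both sides of the FHY1-M3 range, and the log2 fold change was 0.18 (SE 0.23, 95% interval -0.29 to 0.64, adjusted p = 0.649). MAT2A, which makes the methyl donor S-adenosylmethionine, fell to 116 ± 24.0 CPM in the FHY1-M3 libraries (SD, n = 6), against 220.4 ± 82.0 CPM in the inputs (SD, n = 3), with a log2 fold change of -0.90 (SE 0.20, adjusted p = 0.00111).

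The erasers both had negative fold changes, and FTO passed the test. FTO, which also acts on the cap-adjacent mark m6Am, had 62.4 and 56.1 CPM in the ACTB sgRNA libraries, 60.8 and 56.2 CPM in the con sgRNA libraries, and 83.3 and 58.1 CPM in the non-target sgRNA libraries, against 139, 91.0 and 167 CPM in the inputs. All 6 FHY1-M3 libraries lay below the inputs, with non-target sgRNA replicate 1 nearest to them. FTO fell by 1.06 on the log2 scale (SE 0.24, adjusted p = 0.00133), with a 95% interval of -1.55 to -0.57. ALKBH5, the nuclear eraser, had 139 and 219 CPM in the ACTB sgRNA libraries, 248 and 182 CPM in the con sgRNA libraries, and 152 and 161 CPM in the non-target sgRNA libraries, against 318, 228 and 178 CPM in the inputs. The groups overlapped. Its log2 fold change was -0.40 (SE 0.17, 95% interval -0.75 to -0.05, adjusted p = 0.103), which did not pass. The adjusted p was 0.0438 without ACTB sgRNA replicate 2 and 0.0310 without input replicate 3. ALKBH5 counts divided by FTO counts ran from 1.82 to 4.07 in the FHY1-M3 libraries and from 1.06 to 2.50 in the inputs, which overlap.

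**Figure D3:**
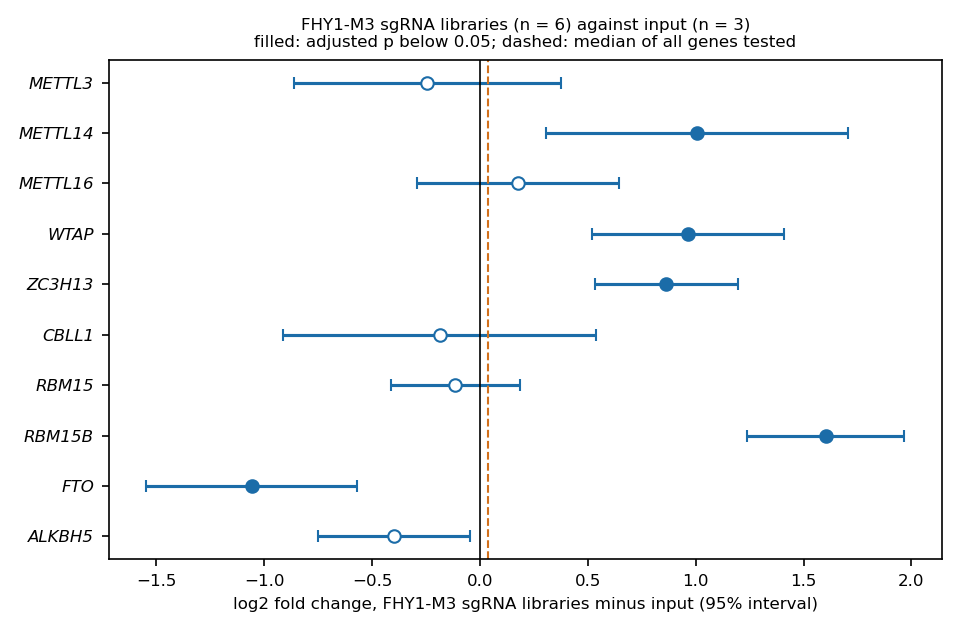
Log2 fold change of each gene in the 6 FHY1-M3 libraries against the 3 inputs (horizontal axis), with its 95% interval; filled points have an adjusted p below 0.05 and the dashed line is the median of all genes tested. RBM15B lies farthest to the right at 1.60 and FTO farthest to the left at -1.06.

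Mitochondrial and histone counts differed between the same groups, as given above. With those genes removed, the log2 fold change was 1.59 for RBM15B, 0.998 for METTL14, 0.95 for WTAP, 0.85 for ZC3H13 and -1.07 for FTO, and all 5 passed the test. Depth differed as well. With the FHY1-M3 libraries thinned to the mean input total, the values were 1.48 for RBM15B, 0.75 for WTAP, 0.77 for ZC3H13 and -1.33 for FTO, and all 4 passed. METTL14 then had 0.80 (adjusted p = 0.137) and ALKBH5 had -0.56 (adjusted p = 0.0354). Thinning drew single counts, although both mates of a pair appear to have been counted. The thinned libraries therefore carry less counting error than libraries sequenced to that depth would, and the calls are not shown to hold at equal depth. Of the genes whose annotated spans overlap a writer gene, TOX4 (1033 bases shared with METTL3) had a log2 fold change of -0.13 (adjusted p = 0.806). DCAF1 (2042 bases shared with RBM15B, which spans 6624 bases) had -0.28 (adjusted p = 0.392). As for WTAP and SOD2, reads from the shared bases may not have been told apart, and these values do not show how such reads were assigned.

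Each guide was also set against the inputs. These comparisons share the 3 inputs, so their values are given side by side. RBM15B rose by 1.41 with ACTB sgRNA, 1.64 with con sgRNA and 1.75 with non-target sgRNA on the log2 scale (adjusted p = 4.07e-06, 1.57e-07 and 3.04e-08). ZC3H13 rose by 0.76, 0.82 and 1.01 in the same order (adjusted p = 0.00639, 0.00328 and 0.000265), and WTAP by 0.91, 0.89 and 1.08 (adjusted p = 0.0152, 0.0169 and 0.00322). FTO fell by 1.14 with ACTB sgRNA and by 1.16 with con sgRNA (adjusted p = 0.0125 and 0.0105), and its value of -0.88 with non-target sgRNA did not pass (adjusted p = 0.0525). METTL14 had log2 fold changes of 1.04, 0.95 and 1.03 and did not pass with any single guide (adjusted p = 0.0913, 0.125 and 0.0856). ALKBH5 had -0.42, -0.16 and -0.62 and did not pass either (adjusted p = 0.231, 0.719 and 0.0569). In all, 4 of 10 genes passed with ACTB sgRNA, 4 with con sgRNA and 3 with non-target sgRNA, where 11.2%, 11.6% and 13% of all genes tested passed.

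Leaving out 1 library moved several of these single-guide calls. RBM15B kept its call with every guide. Without input replicate 3, METTL14 passed with each guide, at 1.99 with ACTB sgRNA, 1.91 with con sgRNA and 1.99 with non-target sgRNA (adjusted p = 0.00135, 0.00203 and 0.00130). WTAP then did not pass with ACTB sgRNA (0.72, adjusted p = 0.0633) or con sgRNA (0.71, adjusted p = 0.0702), and neither did FTO (-0.93, adjusted p = 0.0660, and -0.95, adjusted p = 0.0586). ALKBH5 passed with non-target sgRNA (-0.79, adjusted p = 0.0172). Without input replicate 2, FTO passed with non-target sgRNA (-1.12, adjusted p = 0.0147). For ALKBH5 with con sgRNA the sign turned, to 0.04 without con sgRNA replicate 2 and to 0.07 without input replicate 1.

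With 1 library of a guide left out, fewer genes passed for that guide in general. For ACTB sgRNA, 1 of the 10 genes passed without replicate 1 and 2 without replicate 2, while 697 and 642 of all genes passed, against 1502 with both libraries. For con sgRNA, 1 passed without replicate 1 and 2 without replicate 2, while 623 and 612 of all genes passed, against 1559. For non-target sgRNA, 3 passed without replicate 1 and 2 without replicate 2, while 852 and 945 of all genes passed, against 1739. WTAP lost its call without either library of ACTB sgRNA (adjusted p = 0.116 and 0.0820), without either of con sgRNA (0.278 and 0.0552) and without non-target sgRNA replicate 2 (0.0511). FTO lost its call without either library of ACTB sgRNA (0.0819 and 0.148) or of con sgRNA (0.0986 and 0.136). ZC3H13 lost its call without ACTB sgRNA replicate 1 (0.0667) and without con sgRNA replicate 1 (0.0540). After thinning, WTAP did not pass with ACTB sgRNA (0.87, adjusted p = 0.0621), con sgRNA (0.56, adjusted p = 0.261) or non-target sgRNA (0.82, adjusted p = 0.0714).

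Between the guides, none of the 10 genes passed the test. For ACTB sgRNA against non-target sgRNA 0 of 10 were called, where 0.226% of 12808 genes were. For ACTB sgRNA against con sgRNA 0 were called against 0.0312% of all genes, and for con sgRNA against non-target sgRNA 0 against 0.164%. DESeq2 also called 0 of the 10 in each. At an unadjusted p below 0.05 there were 2, 0 and 2 of the 10 genes in the same order, where 7.82%, 3.93% and 5.25% of all genes were. The smallest adjusted p of the 10 was 0.519, 1 and 0.793.

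The genes with an unadjusted p below 0.05 were RBM15B and ZC3H13 in the first comparison and ALKBH5 and RBM15 in the last. RBM15B averaged 228 ± 31.3 CPM with ACTB sgRNA, 266 ± 0.129 CPM with con sgRNA and 288 ± 2.31 CPM with non-target sgRNA (SD, n = 2 each). The difference between ACTB sgRNA and non-target sgRNA was -0.34 on the log2 scale (SE 0.13, 95% interval -0.60 to -0.07, adjusted p = 0.519). ZC3H13 averaged 283 ± 4.67, 293 ± 12.3 and 336 ± 20.1 CPM with the same guides, and the difference between ACTB sgRNA and non-target sgRNA was -0.24 (SE 0.12, adjusted p = 0.636). For ALKBH5, both con sgRNA libraries (248 and 182 CPM) were above both non-target sgRNA libraries (152 and 161 CPM), a difference of 0.46 (SE 0.18, 95% interval 0.11 to 0.82, adjusted p = 0.793). For RBM15, both con sgRNA libraries (194 and 209 CPM) were below both non-target sgRNA libraries (273 and 230.3 CPM), a difference of -0.32 (SE 0.15, adjusted p = 0.929).

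The catalytic subunit METTL3 differed by -0.05 between ACTB sgRNA and non-target sgRNA (95% interval -0.68 to 0.59), by -0.16 between ACTB sgRNA and con sgRNA (-0.79 to 0.47) and by 0.11 between con sgRNA and non-target sgRNA (-0.52 to 0.74). METTL14 differed by 0.0076, 0.09 and -0.08 in the same order. FTO differed by -0.25, 0.02 and -0.28, with intervals of -0.82 to 0.32, -0.55 to 0.59 and -0.84 to 0.29. With 2 libraries a guide, these intervals leave room for changes of up to about the size seen against input for ZC3H13, and a p that misses the threshold does not show equal levels.

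**Figure D4:**
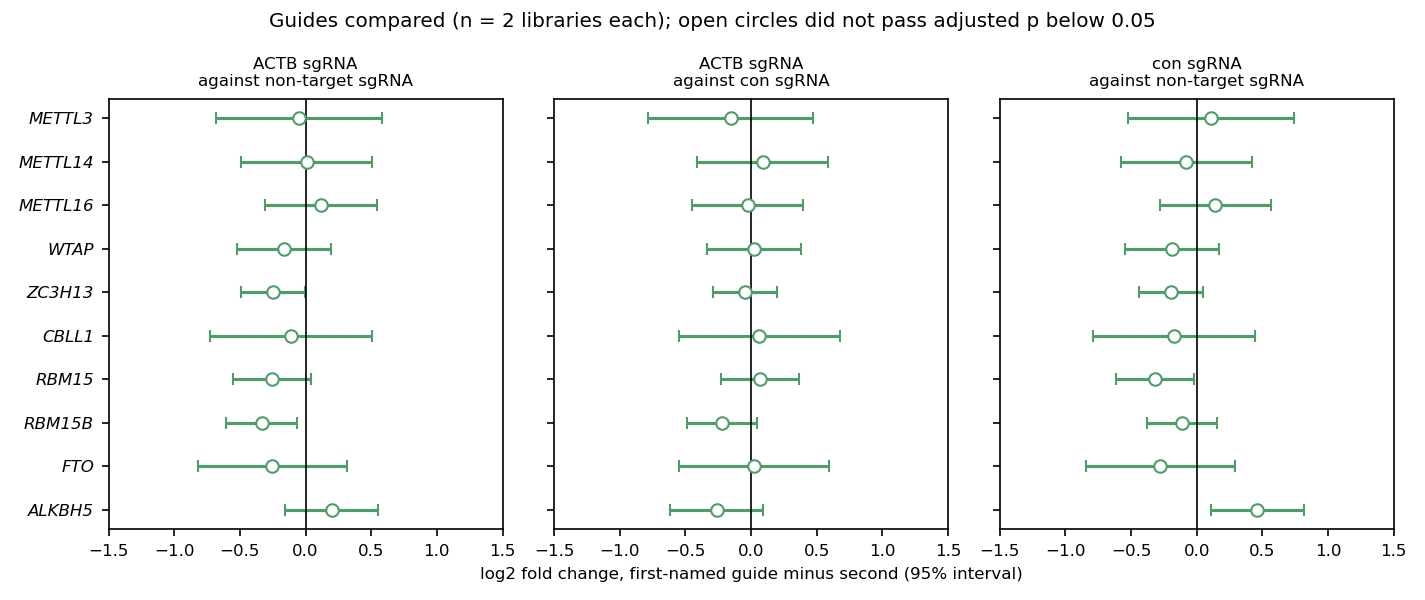
Log2 fold change of each gene between guides (horizontal axes) with its 95% interval, for ACTB sgRNA against non-target sgRNA, ACTB sgRNA against con sgRNA and con sgRNA against non-target sgRNA; open points did not pass an adjusted p below 0.05. All 30 points are open, and the value farthest from 0 is 0.46 for ALKBH5 in con sgRNA against non-target sgRNA.

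In the order of group means, input was lowest for METTL14, METTL16, WTAP, RBM15B and ZC3H13 and highest for METTL3, CBLL1, FTO and ALKBH5. RBM15B and ZC3H13 had the same order, with non-target sgRNA above con sgRNA, ACTB sgRNA and input. WTAP ran from non-target sgRNA through ACTB sgRNA and con sgRNA to input, and METTL14 from ACTB sgRNA through non-target sgRNA and con sgRNA to input. FTO and CBLL1 ran from input through non-target sgRNA and ACTB sgRNA to con sgRNA. RBM15 ran from non-target sgRNA through input and ACTB sgRNA to con sgRNA, ALKBH5 from input through con sgRNA and ACTB sgRNA to non-target sgRNA, METTL3 from input through con sgRNA and non-target sgRNA to ACTB sgRNA, and METTL16 from con sgRNA through ACTB sgRNA and non-target sgRNA to input. No difference between neighbouring guides in these orders passed the test. The step between input and its neighbouring guide passed for RBM15B, ZC3H13 and WTAP and did not pass for the other 7 genes.

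Genes around the writers and erasers were read from lists of 70 further genes in the table. VIRMA, the large scaffold of the writer complex, rose to 175 ± 29.3 CPM in the FHY1-M3 libraries, against 97.0 ± 24.7 CPM in the inputs, a log2 fold change of 0.82 (SE 0.20, adjusted p = 0.00296). It was the member that rose among 6 other m6A and m6Am methyltransferase genes and partners. METTL5, which methylates 18S ribosomal RNA, fell by 1.12 (SE 0.41, adjusted p = 0.0443), and the list's median was -0.19. Among 14 readers 5 rose and 0 fell, with a median of 0.16. The cytoplasmic reader YTHDF2, which brings marked mRNA to deadenylation, rose by 1.21 (SE 0.17, adjusted p = 8.23e-07) and the nuclear reader YTHDC1 by 1.11 (SE 0.18, adjusted p = 1.17e-05). YTHDF1 rose by 0.86 (adjusted p = 0.00755) and HNRNPA2B1 by 0.67 (adjusted p = 5.66e-07).

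Of 9 genes of methyl donor supply, 1 rose and 2 fell, with a median of 0.14. Besides MAT2A, AHCYL2 fell by 1.24 (SE 0.42, adjusted p = 0.0310), and AHCY, which clears S-adenosylhomocysteine, rose by 0.47 (SE 0.13, adjusted p = 0.00734). Of 7 other AlkB family dioxygenases 1 rose and 0 fell, with a median of 0.83. That gene was ALKBH8, a tRNA-modifying enzyme, with 67.6 ± 14.3 CPM in the FHY1-M3 libraries, against 14.9 ± 7.51 CPM in the inputs (log2 fold change 2.27, SE 0.42, adjusted p = 9.04e-05). Of 24 other RNA methyltransferases 8 rose and 0 fell, with a median of 0.61. The largest log2 fold changes among them were 1.60 for the cap methyltransferase CMTR2, 1.33 for the tRNA methyltransferase TRMT1, 1.31 for TRMT6 and 1.24 for the cap methyltransferase RNMT. Of 10 tested subunits of the CCR4-NOT deadenylase, 0 passed and 2 had an unadjusted p below 0.05, with a median of -0.21. Over all genes tested, 11.5% rose, 8.71% fell and 32% had an unadjusted p below 0.05. The lists were drawn up with earlier results of these data known, and they were not tested as sets. Between guides, edgeR called 0 genes of these 6 lists in each comparison.

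Across the 9 libraries, the genes whose log2 CPM followed each writer or eraser most closely were sought among 10488 genes with a mean of at least 10 CPM. The Pearson coefficients describe 9 points that share their libraries and the depth difference between the FHY1-M3 libraries and the inputs. RBM15B was closest to MYH9 (0.994) and PRRC2B (0.991), ZC3H13 to PARP1 (0.990) and CIR1 (0.989), and WTAP to FTSJ3 (0.989) and SLC12A7 (0.983). METTL14 was closest to SPSB4 (0.987) and PPAN (0.985), CBLL1 to TCTN2 (0.989) and RFX3 (0.987), and FTO to C2CD5 and HES1 (0.981 each). Less close were METTL3 with NOTCH3 (0.949) and ZNF674 (0.938), ALKBH5 with CAV2 (0.931) and STXBP3 (0.906), METTL16 with ZNF432 (0.920) and ATG4A (0.917), and RBM15 with MYO5A (0.919) and LMAN1 (0.910). FTSJ3 is also among the 24 other RNA methyltransferases, where it rose by 0.90 (SE 0.22, adjusted p = 0.00265).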

How the data were processed

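RNA of 9 HEK293T libraries was measured as read counts per gene. The authors deposited whole-number counts for 19969 gene symbols, with no normalization visible in the values. Per the submitters' processing notes, cutadapt 4.3, STAR 2.7.10b and deepTools were used with the build hg38, in roles they do not state. Which counter and annotation were used, and whether strand was considered, is not given in the sources used here. Among deposited counts of 1 to 20, 88.5% to 95.0% per library were even, so both mates of a pair appear to have been counted. Replicates differed by more than sampling noise (chi-square per degree of freedom 1.80 to 5.12).

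Groups were compared with edgeR 4.0.16 (quasi-likelihood F test, robust, two-sided, TMM scaling, low-count filter by group) in R 4.3.3. Comparisons between guides used 1 fit of 6 libraries and comparisons with input 1 fit of all 9. Every adjusted p is from this test, with Benjamini-Hochberg adjustment over all genes tested, unless another tool is named, and the threshold was 0.05. Each SE is the size of the log2 fold change divided by the square root of its F statistic. All 10 genes are named, with up to 4 called genes per list by size of change and the 2 genes closest in pattern to each. The genes and lists were chosen with earlier results of these data known. The fits were first tested on simulated data, with 50 genes changed at each size. For FHY1-M3 against input, 18% of 1.5-fold, 48% of 2-fold and 84% of 4-fold changes were recovered. For ACTB sgRNA against non-target sgRNA the shares were 22%, 32% and 80%. Changes of 2-fold or less were thus missed more often than found. Alternative settings changed the scaling, the low-count filter, the tool (DESeq2 1.42.0), the counting unit (pairs), the depth, the removal of mitochondrial and histone genes, and which libraries entered the fit, with each library omitted in turn. A further one added the replicate number as a block.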

Additional observations from a re-analysis of the deposited data

Results flagged for a closer look

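FTO in non-target sgRNA replicate 1 stood apart from the other FHY1-M3 libraries. It had 83.3 CPM (310 counts) there, while the other 5 FHY1-M3 libraries lay between 56.1 and 62.4 CPM. The gap to the nearest library was 0.767 of the whole range, above Dixon's 95% critical value for 6 libraries. The same check was made for all 10 genes, and chance alone passes it in about 1 of 20 groups. The other 9 genes did not pass it.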

How the results depend on the processing

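Over 19 alternatives, 4 to 6 of the 10 genes passed in the FHY1-M3 libraries against input, and in each guide comparison 0 passed in all 17. WTAP, RBM15B, ZC3H13 and FTO kept their calls in all 19 for the 6 FHY1-M3 libraries together; for single guides RBM15B did. METTL14 also lost its call with median-ratio factors (adjusted p = 0.0545), a mean of at least 10 CPM (0.0681), DESeq2 (0.0772) and thinning (0.137), and ALKBH5 gained one with median-ratio factors (0.0466) and the replicate block (0.0221). For non-target sgRNA against input, 5 genes passed with median-ratio factors, no low-count filter, at least 10 CPM, halved counts or the replicate block, and 2 to 5 when leaving out 1 library. With only the groups compared in the fit, 2 passed for ACTB sgRNA and 2 for con sgRNA against input; leaving out 1 library gave 1 to 4 for each. With that fit, WTAP passed with no single guide (adjusted p = 0.115, 0.0997 and 0.0510 for ACTB, con and non-target sgRNA), and ZC3H13 did not pass with ACTB sgRNA (0.0847) or con sgRNA (0.0557). Treating the 6 FHY1-M3 libraries as 1 group, an alternative chosen after seeing the data, gave 5. Only the groups compared was not run for FHY1-M3 against input, which already uses all 9 libraries.

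Libraries with the same replicate number did not deviate together from their group means (correlations of -0.012 to 0.02). The deviations of a guide's libraries mirror each other, so between 2 guides replicates 1 and 2 give the same coefficient and count once. Each coefficient is taken over all genes tested, so whether replicates with the same number shared a batch effect in some genes was not tested. With the replicate block, 6 genes passed for FHY1-M3 against input, METTL3 was at 0.019 and CBLL1 at 0.11 on the log2 scale, and METTL14 was at 1.97 (adjusted p = 0.00012). For single guides against input with the block, METTL14 passed at 1.998 with ACTB sgRNA, 1.92 with con sgRNA and 1.999 with non-target sgRNA, and ALKBH5 at -0.79 with non-target sgRNA. WTAP did not pass with ACTB sgRNA (adjusted p = 0.0806) or con sgRNA (0.0916), nor did FTO with ACTB sgRNA (0.0530).

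None of the following changes of direction involved a called value. After thinning, ACTB sgRNA against non-target sgRNA gave 0.13 for METTL3, -0.35 for METTL14 and 0.046 for WTAP. ACTB sgRNA against con sgRNA gave -0.15 for METTL14, 0.011 for METTL16, 0.11 for ZC3H13 and -0.20 for FTO, and con sgRNA against non-target sgRNA gave 0.022 for FTO. Without 1 library at a time, ACTB sgRNA against non-target sgRNA ran from -0.12 to 0.025 for METTL3, -0.25 to 0.23 for METTL14, -0.083 to 0.30 for METTL16, -0.29 to 0.084 for CBLL1, -0.49 to 0.032 for FTO and -0.16 to 0.49 for ALKBH5. ACTB sgRNA against con sgRNA ran from -0.18 to 0.31 for METTL14, -0.24 to 0.22 for METTL16, -0.13 to 0.19 for WTAP, -0.12 to 0.23 for RBM15, -0.20 to 0.38 for CBLL1, -0.058 to 0.10 for FTO and -0.62 to 0.028 for ALKBH5. For con sgRNA against non-target sgRNA the ranges were -0.049 to 0.25 for METTL3, -0.19 to 0.047 for METTL14, -0.11 to 0.36 for METTL16, -0.49 to 0.089 for CBLL1 and -0.51 to 0.012 for FTO. Against input, METTL3 ran from -0.44 to 0.0040, METTL16 from -0.062 to 0.47 and CBLL1 from -0.67 to 0.32 in the FHY1-M3 libraries, and ALKBH5 from -0.39 to 0.067 with con sgRNA. The cause of these changes was not tested.

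Of all genes, 29 were called for ACTB sgRNA against non-target sgRNA, with 74 by DESeq2 and 9 after thinning. For con sgRNA against non-target sgRNA there were 21, with 38 by DESeq2 and 8 after thinning.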
